A study of Arabidopsis thaliana with 8 samples.

Results

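The change from the first to the third hour of heat at 43 °C was followed in Arabidopsis seedlings that had grown with 24-epibrassinolide (EBR), a synthetic brassinosteroid. For every probe set in the authors' deposited table of conditions against the unstressed control, the deposited log2 value after 1 h of heat was subtracted from that after 3 h, both in EBR seedlings. The table lists 708 probe sets of the 22746 on the ATH1 array that were measured, and 671 of them carry 1 gene locus, 34 several loci and 3 none. The seedlings were of the Columbia ecotype and had grown for 21 days on nutrient medium, with 1 µM EBR or, as controls, with 0.01% ethanol. EBR shoots were collected at 0 h, 1 h and 3 h of heat at 43 °C, and control shoots at 0 h, 1 h and 3 h as well. All plant material above the medium was taken, from at least 30 seedlings pooled per treatment, and the labels give 3 biological replicate arrays for each condition. A stage of recovery after heat is deposited too and has no column in this table. Only 1 mean per condition is deposited, so no difference below has a replicate check or a p-value. Differences of at least 2-fold (log2 1) were counted, which is the fold threshold named in the file headers.

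Heat shock makes plant cells switch on chaperones, which hold unfolding proteins, through heat shock transcription factors that act within minutes. As heat goes on, some factors of the same family damp the response, and genes for growth, cell division and cell walls are turned down. Brassinosteroids are growth hormones sensed at the cell surface, and they are also known to raise the tolerance of seedlings to heat. The comparison asks which genes went on rising, went on falling or turned back once the first hour of heat had passed.

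The log2 values are relative to a baseline of each probe set, so levels can be compared between conditions but not between genes. The probe sets in the table had been chosen by a test for an EBR effect, as its header states, so they are not a sample of all genes, and the direction of any group of them is not independent evidence. No mesophyll, root, guard cell or vascular marker of the lists used is among the 708, so the shoot label could not be checked. Of 4 floral markers the petal identity gene PI was listed, and of 4 epidermis markers the cuticle regulator MYB16. The EBR values of PI were -0.62, -0.35 and -0.36 at 0 h, 1 h and 3 h, and MYB16 at 1.07, -1.47 and -1.49, so neither moved by as much as 2-fold after 1 h. In whole shoots, fewer cells of a type and less RNA per cell cannot be told apart.

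Among the listed probe sets, most of the change came in the first hour. They had been chosen in part for 2-fold changes against the unstressed control, and no pair in that choice was 3 h against 1 h. The shares of the earlier and later step therefore do not measure the whole heat response. Between 1 h and 3 h, 5 of 708 probe sets rose at least 2-fold in EBR seedlings (0.706%) and 11 fell (1.55%), which makes 16 in all (2.26%). In the first hour 78 had risen (11.0%) and 172 had fallen (24.3%), which makes 250 (35.3%). The median size of the difference was 0.196 log2 units between 1 h and 3 h and 0.715 between 0 h and 1 h. The later differences lay about evenly around 0, with 353 above and 355 below, and ranged from -2.56 for PCNA2 to 1.44 for AT2G38600. The earlier ones ranged from -3.47 to 6.89. Both steps use the 1 h mean, so they are given side by side and were not correlated.

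**Figure D1:**
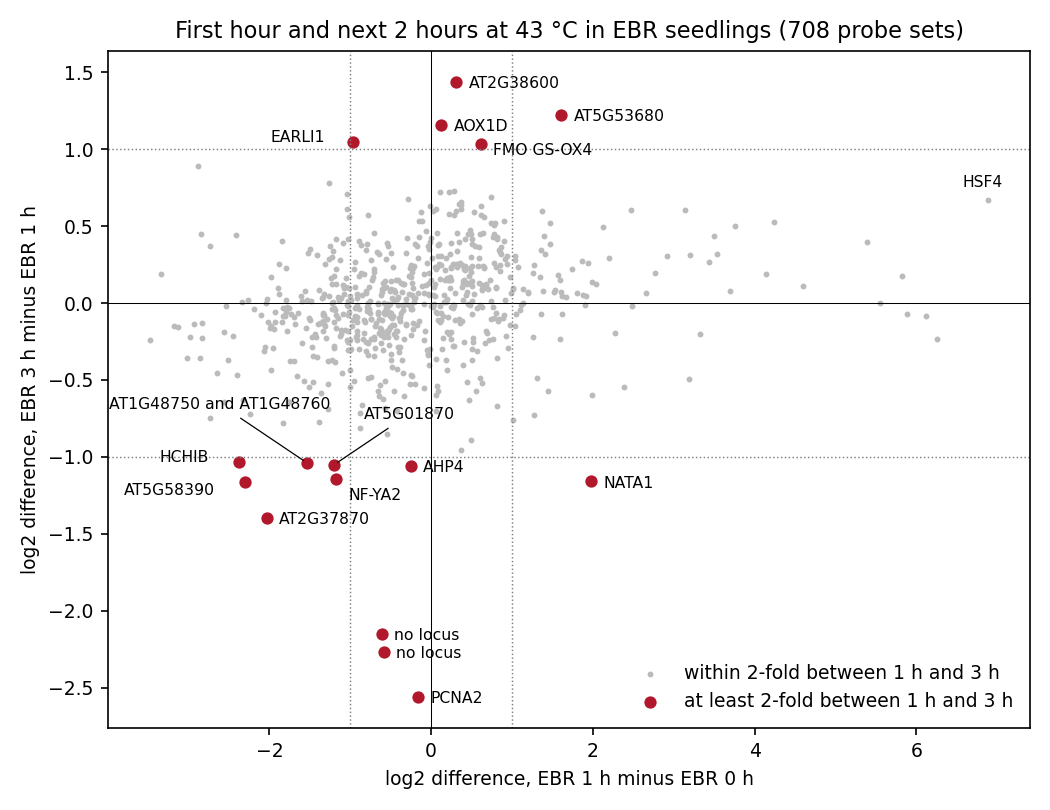
Each point is 1 of the 708 listed probe sets in EBR seedlings, with the log2 difference of the first hour (1 h minus 0 h) on the horizontal axis and that of the next 2 hours (3 h minus 1 h) on the vertical axis; dotted lines mark 2-fold. The cloud is wide along the horizontal axis and narrow along the vertical axis, and the 16 probe sets past 2-fold after 1 h are in red, with HSF4 at the far right for comparison.

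The 5 genes that rose after 1 h encode an acid phosphatase family protein, an RNA-binding family protein, a mitochondrial oxidase, a cell wall protein and a glucosinolate enzyme. In order of time, AT2G38600, of the acid phosphatase family, had values of -0.06, 0.25 and 1.69 in EBR seedlings and of -0.07, 0.18 and 0.15 in controls. Its value was thus near that of the unstressed shoot for an hour and was high only in the EBR shoots heated for 3 h, by 1.44 over 1 h (2.71-fold). AT5G53680, an RNA-binding family gene, lay at -0.66, 0.95 and 2.17 in EBR seedlings and at -0.55, -0.00 and -0.08 in controls. It was the 1 gene that rose at least 2-fold in both steps, by 1.61 and then by 1.22. AOX1D, an alternative oxidase that carries electrons past part of the mitochondrial respiratory chain, lay at 0.59, 0.72 and 1.88 in EBR seedlings and at -0.60, -0.38 and -0.44 in controls. Its difference of 1.16 (2.24-fold) came after a first hour of 0.13.

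EARLI1 and FMO GS-OX4 complete the group. EARLI1, a proline-rich protein of the lipid transfer type that is attached to the cell wall, lay at 1.72, 0.76 and 1.81 in EBR seedlings and at 0.42, -1.07 and -1.01 in controls. Its 3 h value was back within 0.09 of the unstressed one, after a first-hour difference of -0.96 that just missed 2-fold. FMO GS-OX4, a monooxygenase that oxidises the side chain of glucosinolates, lay at -0.50, 0.11 and 1.14 in EBR seedlings and at -2.35, -1.19 and -0.95 in controls. The difference was 1.05 for EARLI1 and 1.03 for FMO GS-OX4, so both lie just inside the threshold. The nearest genes outside it were the RING-type ubiquitin ligase gene ATL8 at 0.89 and AT5G16240, of the acyl-carrier-protein desaturase family, at 0.78. By mean signal intensity FMO GS-OX4 was at 151 at 3 h and 96.4 at 1 h, a difference of 0.65, so it passed 2-fold in the log2 columns only. All 5 genes that rose were in the authors' deposited list of EBR against control at 3 h and 3 of them in that at 1 h, where 240 and 226 of all 708 probe sets are listed. Those lists rest on the same EBR means by which the genes were picked, so these counts are not independent support.

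Among the 11 probe sets that fell after 1 h, the lowest difference belonged to PCNA2, the sliding clamp that holds DNA polymerase on its template in dividing cells. In the same order of time, PCNA2 lay at 0.95, 0.79 and -1.78 in EBR seedlings and at 1.39, 1.47 and -0.67 in controls. It kept its level for the first hour and was lower at 3 h in both arms, by -2.56 in EBR seedlings (5.90-fold) and by -2.14 in controls. A pair of probe sets without a locus in the deposited table were also lower at 3 h in both arms, but had differed by -0.58 and -0.61 in the first hour in EBR seedlings. The lower of them differed by -2.27 in EBR seedlings and -2.15 in controls, and the other by -2.15 in EBR seedlings and -2.17 in controls. AHP4, a phosphotransfer protein of cytokinin signalling, also fell only after 1 h, but in the EBR arm alone did it pass 2-fold. It lay at 2.46, 2.21 and 1.15 in EBR seedlings and at -0.23, -0.32 and -0.15 in controls, so that the EBR value stayed above the control value at 3 h. Of the 11 probe sets that fell, 5 were in the authors' deposited list of EBR against control at 3 h and 7 in that at 1 h. Here too the lists share the EBR means used for the choice.

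In 6 probe sets a fall of at least 2-fold in the first hour was followed by a fall of at least 2-fold after it. AT2G37870, of the family of lipid transfer proteins and protease inhibitors, lay at 3.42, 1.38 and -0.01 in EBR seedlings and at 0.02, -0.64 and -0.98 in controls. AT5G58390, a class III peroxidase, lay at 3.58, 1.28 and 0.11 in EBR seedlings and at 1.25, -0.24 and -0.37 in controls. HCHIB, a basic chitinase that breaks down the chitin of fungal walls, lay at 3.50, 1.12 and 0.08 in EBR seedlings and at 0.70, -0.06 and -0.03 in controls. In each of these the unstressed EBR shoot lay more than 4-fold above the control, and the EBR value was lower at each later time. NF-YA2, an A subunit of the CCAAT-binding nuclear factor Y, lay at 2.51, 1.34 and 0.19 in EBR seedlings and at -0.28, -1.75 and -1.25 in controls. The lipid transfer protein gene AT5G01870 lay at 2.38, 1.19 and 0.14 in EBR seedlings and at 0.69, -0.21 and -1.10 in controls. The sixth probe set is shared by AT1G48750 and AT1G48760 and lay at 1.73, 0.20 and -0.84 in EBR seedlings and at 0.32, -0.57 and -0.99 in controls. The differences between 1 h and 3 h in EBR seedlings ran from -1.40 for AT2G37870 to -1.03 for HCHIB.

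The EBR minus control difference of these 6 probe sets was smaller at 3 h than at 1 h. They had been picked for a lower EBR value at 3 h, so this follows in part from the choice. For HCHIB it was 2.79, 1.17 and 0.11 at 0 h, 1 h and 3 h, and for AT5G58390 2.33, 1.52 and 0.48. For AT2G37870 it was 3.40, 2.03 and 0.97, so all 3 genes were within 2-fold of the control after 3 h. For NF-YA2 it was 2.78, 3.08 and 1.44, larger at 1 h than at 0 h, and for AT5G01870 1.70, 1.40 and 1.24. Both were thus still more than 2-fold above control at 3 h. The EBR mean signal intensity at 1 h was low for HCHIB at 17.8, AT5G58390 at 24.9 and AT2G37870 at 46.7. All 3 lay below the low signal filter of 48.1. None of the 3 has an EBR signal at 3 h, so their later fall could not be checked by signal. The nearest named genes outside the threshold on this side were the receptor-like kinase gene AT1G35710 at -0.96 and IQD33 (iqd33 in the reference table), of a family of calmodulin-binding proteins, at -0.89. Both lay above their unstressed value at 1 h in EBR seedlings, at 1.32 against 0.95 for AT1G35710 and at 0.95 against 0.46 for IQD33.

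Only NATA1 turned back by 2-fold in each step. NATA1, which acetylates ornithine in the jasmonate response, lay at 0.60, 2.58 and 1.42 in EBR seedlings and at -0.75, -0.01 and -0.48 in controls. The later fall of 1.16 on the log2 scale undid part of the rise of 1.98, and the 3 h value stayed above both the unstressed EBR value and every control value. Its mean signal intensity was 71.7 at 3 h and 113 at 1 h, which gives a difference of only -0.66, so the call rests on the log2 columns. No probe set fell at least 2-fold and then rose at least 2-fold.

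**Figure D2:**
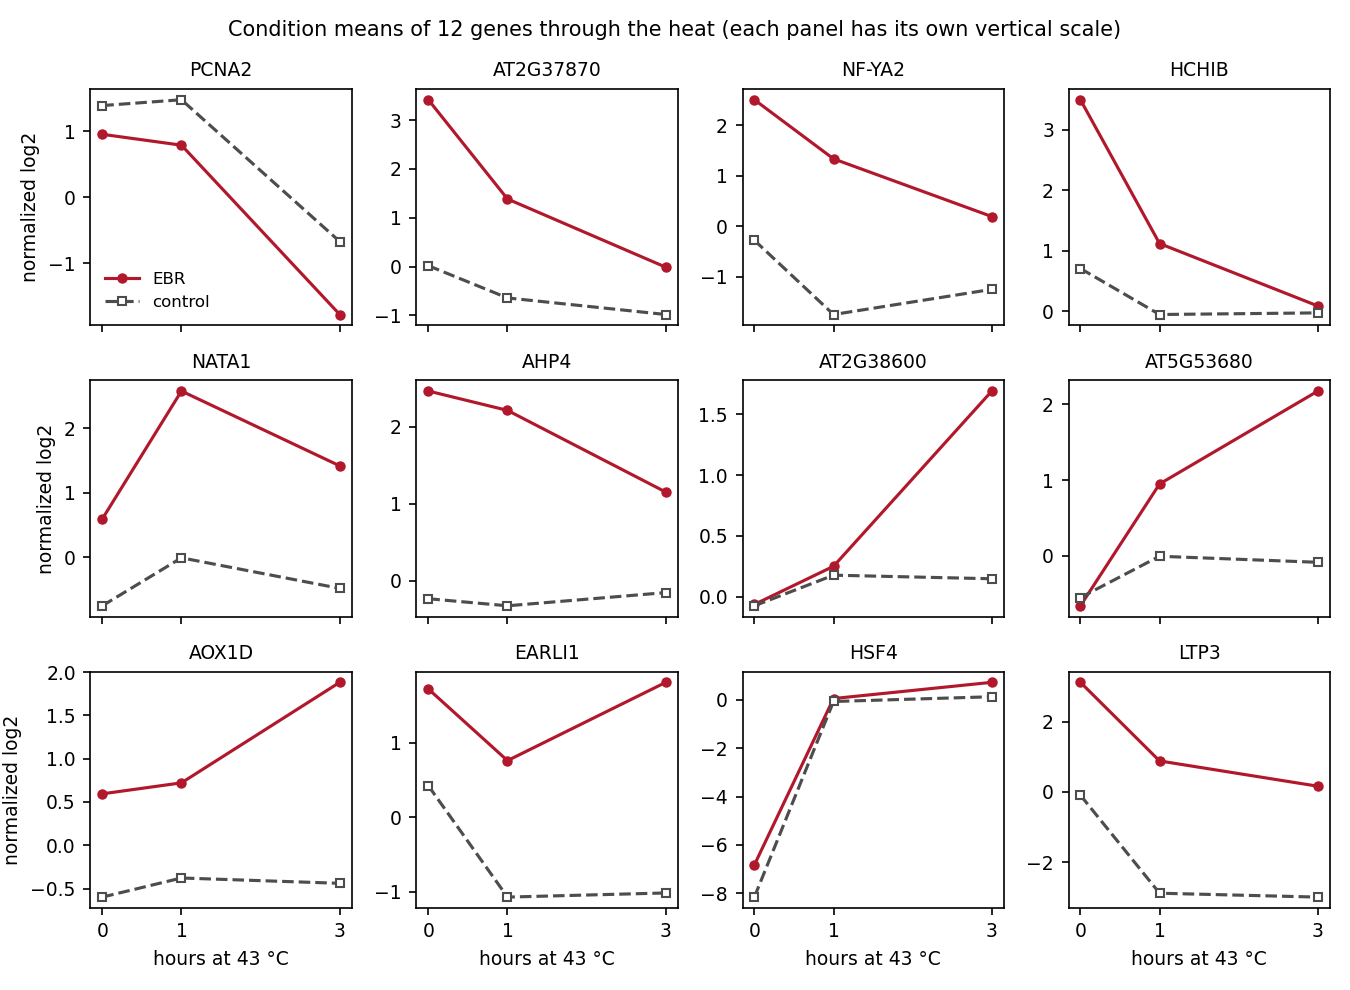
Deposited condition means of 12 genes at 0 h, 1 h and 3 h of heat, with EBR in red (filled circles) and control in grey (open squares); the vertical axis is the normalized log2 value, with a scale of its own in each panel, and the means carry no error bars. PCNA2 fell in both arms after 1 h, AT2G37870, NF-YA2 and HCHIB came down in 2 steps in EBR seedlings, NATA1 turned back, and AT2G38600, AT5G53680 and AOX1D were high at 3 h in EBR seedlings alone.

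Probe sets that had moved in the first hour mostly stayed within 2-fold afterwards, as did the list as a whole. Of all 708, only 16 (2.26%) passed 2-fold in the later step. Of the 78 probe sets that rose in the first hour, 76 stayed within 2-fold over the next 2 hours (97.4%), with a median later difference of 0.09 and 54 above 0 against 24 below. Of the 172 that fell, 166 stayed (96.5%), with a median of -0.10 and 59 above 0 against 113 below. Among the 458 that had done neither, 450 stayed (98.3%), so staying level was not particular to the early movers. HSF4, also called HSFB1, a heat shock factor of the repressing class, lay at -6.83, 0.06 and 0.73 in EBR seedlings and at -8.16, -0.06 and 0.13 in controls. Its later difference of 0.67 in EBR seedlings and 0.20 in controls was below 2-fold. Hsp70-2, a cytosolic chaperone of the HSP70 family, lay at -3.83, 0.78 and 0.89 in EBR seedlings and at -5.06, 0.34 and 0.16 in controls. Its co-chaperone J2 differed by 3.43 in the first hour and by 0.27 after it.

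Other genes with a high first step also stayed level. GolS1, which makes galactinol for protective sugars of the raffinose family, differed by 5.83 and then by 0.18 in EBR seedlings. AT1G66090, of the family of intracellular immune receptors, differed by 6.25 and then by -0.23, and AT1G67360, of the rubber elongation factor family, by 6.12 and then by -0.08. AT4G27652 differed by 5.88 and then by -0.07. At the low end, AT3G09580 differed by -3.47 in the first hour and by -0.24 after it, and AT1G15260 by -3.34 and then by 0.19. BRH1, a RING finger gene that responds to brassinosteroids, had first and later differences of -2.86 and -0.35. In the control arm 78 of 80 probe sets that rose in the first hour (97.5%) and 142 of 145 that fell (97.9%) stayed within 2-fold afterwards.

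At 1.5-fold the same courses took in more genes. In EBR seedlings 29 probe sets were at least 1.5-fold higher at 3 h than at 1 h (4.1%) and 38 lower (5.37%), which makes 67 (9.46%), against 12 higher (1.69%) and 41 lower (5.79%) in controls, which makes 53 (7.49%). In EBR seedlings 8 went on rising, among them HSF4, the cell wall invertase gene ATBFRUCT1 with a later difference of 0.69, and the disease resistance family gene AT3G44400 with 0.63. A further 21 went on falling, including the auxin response factor gene ARF6 at -0.78, NF-YA3 at -0.75 and the lipid transfer protein genes LTP4 at -0.77 and LTP3 at -0.72. LTP3 and LTP4 are close relatives whose probe sets may bind each other's transcripts. LTP3 lay at 3.11, 0.88 and 0.16 in EBR seedlings and at -0.09, -2.88 and -2.99 in controls. Their approximate standard errors, explained below, were wide, at 1.29 for LTP3 and 0.56 for LTP4.

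Turns at 1.5-fold numbered 5 downward and 5 upward. The downward turns were NATA1, LURP1, AT1G64360, MYB62 and XBAT34. By mean signal intensity the later difference was -0.33 for LURP1, -0.56 for AT1G64360 and -0.40 for XBAT34, so 3 of the 4 that have signals did not pass 1.5-fold by it. LURP1, a gene of the defence against downy mildew, lay at 3.37, 4.38 and 3.62 in EBR seedlings and at -0.09, 0.23 and -0.14 in controls. MYB62, a regulator of phosphate starvation responses, lay at 0.30, 1.11 and 0.44 in EBR seedlings and at -0.27, -0.03 and 0.02 in controls. The upward turns were ATL8, EARLI1, AT5G16240, AT3G49640 and BGLU45. ATL8 lay at 0.87, -2.02 and -1.13 in EBR seedlings and at 1.58, -0.47 and 0.29 in controls, so it turned in both arms, by 0.89 and 0.76. A further 16 probe sets were higher only after 1 h, among them SRG1, a dioxygenase gene linked to senescence, with 0.73 and the autophagy gene APG8A with 0.60. Another 12 were lower only after 1 h, among them BGLU18, a glucosidase that frees abscisic acid from its sugar conjugate, with -0.85, and the chloroplast superoxide dismutase gene CSD2 with -0.59.

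The A subunits of nuclear factor Y were looked at together after their values were seen. NF-YA2 fell by 1.14 on the log2 scale, and the differences were -0.75 for NF-YA3, -0.57 for NF-YA8, -0.21 for NF-YA6 and -0.14 for NF-YA5. In controls these 5 genes differed by 0.50, -0.29, -0.05, 0.04 and -0.21 in the same order. In the first hour NF-YA5 differed by 0.98 and NF-YA8 by -0.66 in EBR seedlings, while NF-YA2, NF-YA3 and NF-YA6 fell by 1.17, 2.73 and 2.45.

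The same step was then read in control seedlings, which share no array with it. There 0 of 708 probe sets rose at least 2-fold (0.0%) and 10 fell (1.41%), with a highest difference of 0.87. The 11 that fell in EBR seedlings and the 10 that fell in controls shared 3, which are PCNA2 and the same pair of probe sets without a locus, or 27.3% of the EBR list and 30.0% of the control list. Of the 11, 8 had the same sign in controls, and of the 5 that rose in EBR seedlings 2 did. The other 7 that fell in controls were ARF6, AT5G13200, PCC1, KCS3, SLAH3, AT3G15350 and the probe set shared by AT1G57980 and AT1G57990. PCC1, a gene known for its control by pathogens and the clock, lay at 0.86, 3.13 and 2.94 in EBR seedlings and at -1.90, -0.01 and -1.33 in controls. After 3 h it was thus still near its 1 h value in EBR seedlings, at a difference of -0.19, against -1.31 in controls.

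**Figure D3:**
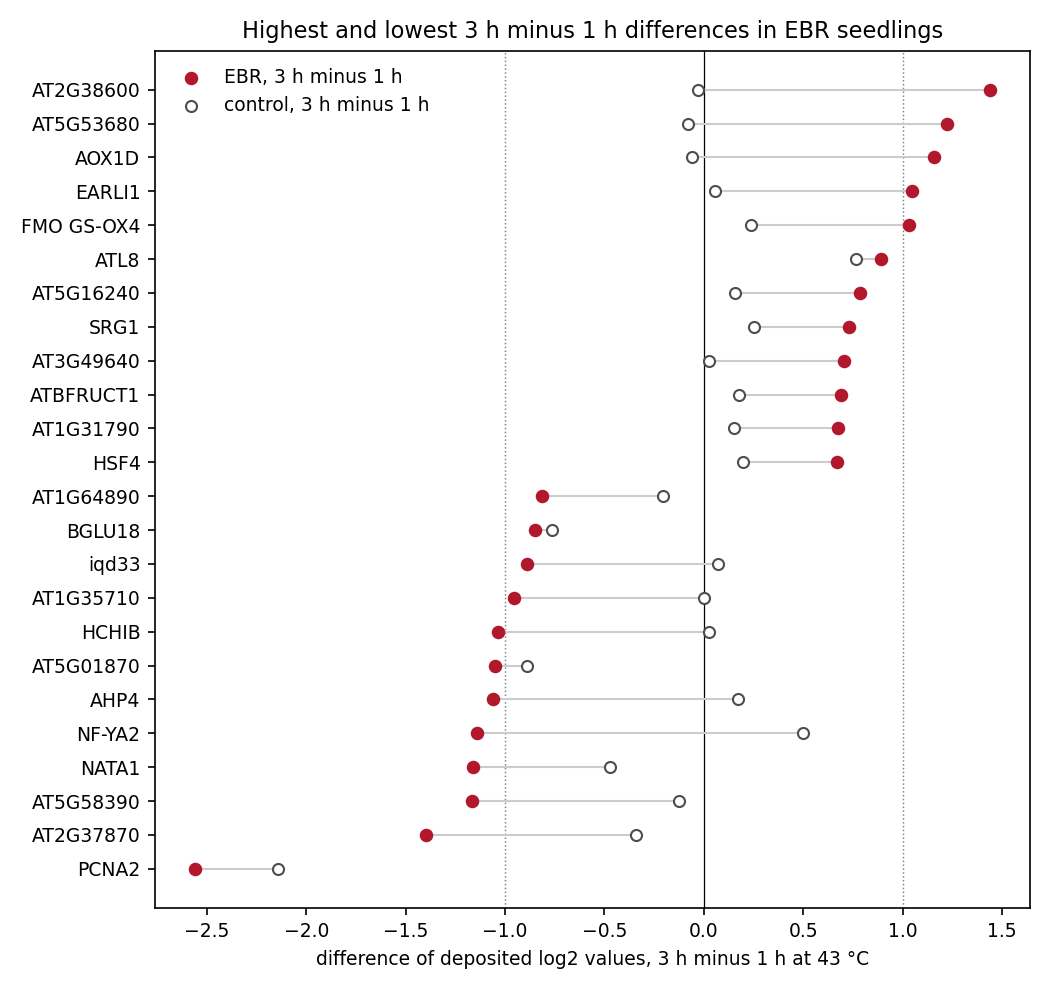
The 12 highest and the 12 lowest differences between 3 h and 1 h among genes with 1 locus, as filled red circles for EBR seedlings and open grey circles for control seedlings, on a log2 axis with dotted lines at 2-fold. The 5 genes past 2-fold on the right lie between -0.08 and 0.24 in controls, while PCNA2 at the bottom is far left in both arms.

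The EBR step and the control step were at least 2-fold apart in 13 of 708 probe sets (1.84%), 8 with a higher EBR step (1.13%) and 5 with a lower one (0.706%). At 1.5-fold 49 were higher (6.92%) and 33 lower (4.66%), which makes 82 (11.6%). The 5 lower were NF-YA2 at -1.64, AHP4 at -1.23, HCHIB and AT2G37870 at -1.06 each, and AT5G58390 at -1.04. The highest, at 1.63, was the probe set shared by AT1G57980 and AT1G57990, with 0.06 in EBR seedlings and -1.57 in controls. The other higher ones included AT2G38600 at 1.47, AT5G53680 at 1.30 and AOX1D at 1.22, which moved in EBR seedlings. For AT3G15350 at 1.25, the transcription factor gene NAC069 at 1.18 and PCC1 at 1.12, the larger move was in controls, where they differed by -1.31, -0.83 and -1.31. NAC069 itself lay at -0.65, 0.72 and 1.06 in EBR seedlings and at -1.41, 0.19 and -0.65 in controls. DREB26, an ethylene response factor family gene outside the naming rule, differed by 0.37 in EBR seedlings and -0.73 in controls. None of these differences was tested, since each rests on 4 means.

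The difference between the arms can also be read from the series' value table, which holds EBR to control ratios of the same arrays after another processing. There the 3 h minus 1 h difference had the same sign for 535 of 708 probe sets, with a Pearson's r of 0.634 across probe sets, which share arrays and are not replicates. Its scale was narrower, with a slope of 0.493. AT2G38600 was at 0.87, AT5G58390 at -0.77, NAC069 at 0.59 and NF-YA2 at -0.56 in it. AOX1D, AHP4 and AT3G15350 were closer to 0 there, at 0.11, -0.21 and 0.03, and PCC1 was at -0.014. As a measure of RNA quality, the log2 of the 3' over the 5' signal of the array's actin and GAPDH controls was compared between the arms. In EBR it lay above control at 1 h for all 4 pairs, by 0.47, 0.40, 0.57 and 0.29. At 3 h it differed by 0.06, -0.30, -0.29 and 0.04. Its part in the differences between 1 h and 3 h was not tested.

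**Figure D4:**
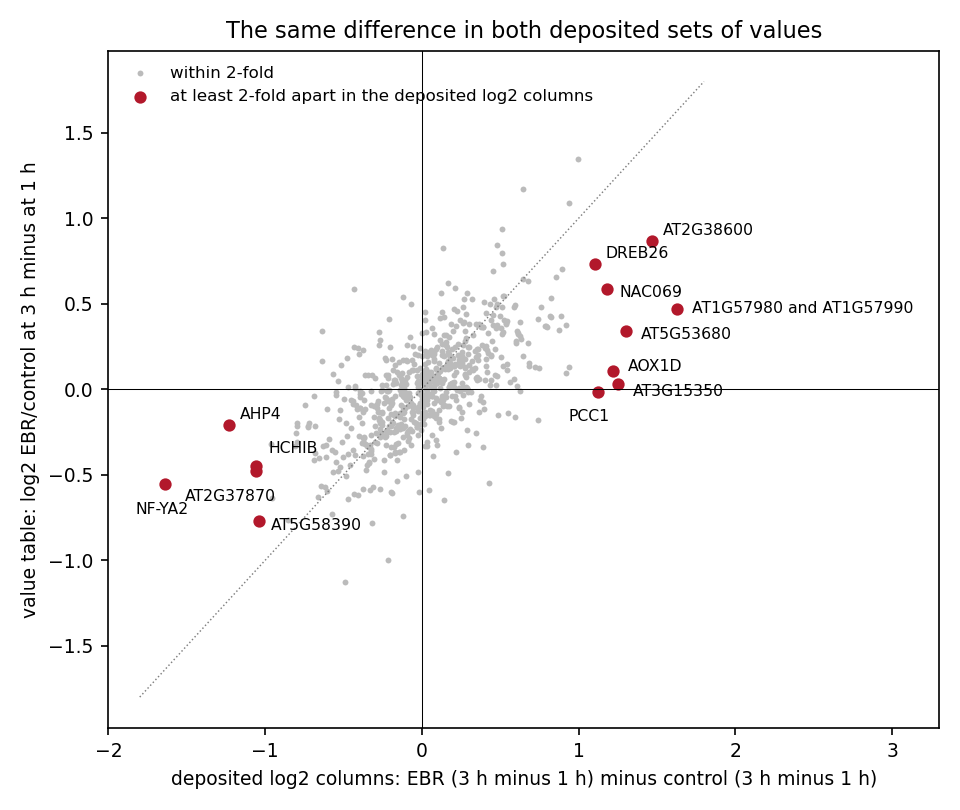
Each point is 1 of the 708 listed probe sets; the horizontal axis is the EBR difference (3 h minus 1 h) minus the control difference in the deposited log2 columns, and the vertical axis is the same quantity from the value table's log2 ratios, with equality dotted. The 13 probe sets past 2-fold on the horizontal axis are in red, and AOX1D, AT3G15350 and PCC1 lie near 0 on the vertical axis.

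Gene groups were described by their counts and medians beside those of all 708 probe sets, whose median was -0.00. Only probe sets with 1 locus were counted in the groups. The genes annotated with lipid transport stood lowest among 60 Gene Ontology terms with at least 10 loci. Of its 10 loci, 9 lay below 0, with a median of -0.55 in EBR seedlings and -0.25 in controls. AT2G37870 and AT5G01870 fell, EARLI1 rose, and the rest were LTP4 at -0.77, LTP3 at -0.72, AT3G18280 at -0.64, CWLP at -0.45, LTP2 at -0.31, AT1G62790 at -0.13 and DIR1 at -0.11. Lipid transfer proteins carry waxes and lipids to the cell surface, and DIR1 is known for its part in systemic immunity. The term lipid binding holds the same 10 loci. In their first hour these loci had a median difference of -1.29.

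No member of the stress, cold, abscisic acid and dehydration groups passed 2-fold, and their medians lay between 0.06 and 0.23. Only 2.26% of all 708 probe sets passed 2-fold, so none in groups this small does not set them apart. The response to stress, with 20 loci, had 16 above 0 and a median of 0.17, from CSD2 at -0.59 to HSF4 at 0.67. It includes the calmodulin-binding transcription factor gene SR1 at 0.45. The response to abscisic acid had 7 of 12 loci above 0 with a median of 0.10, and the response to cold 8 of 15 with a median of 0.06. Of 28 abscisic acid and dehydration genes, 9 were listed and 8 lay above 0, with a median of 0.23. COR47, a dehydrin that protects membranes, lay at -1.50, -0.03 and 0.36 in EBR seedlings and at -2.82, -0.21 and -0.37 in controls. ERD7 differed by 0.39, the late embryogenesis abundant family gene AT3G02480 by 0.32, ERD10 by 0.27 and ERD14 by 0.23, but by mean signal intensity AT3G02480 differed by -0.26. Among these 9, COR15A, which protects chloroplast membranes in the cold, was the exception at -0.47. A further member of the list lies on a probe set with several loci and was not counted. Among such probe sets, that shared by AT5G15960 and AT5G15970 differed by -0.28. Lowest in the abscisic acid term were LTP4 at -0.77 and LTP3 at -0.72, and in the cold term AT4G30650 at -0.71.

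Oxidoreductase activity, the term with the highest median at 0.19, had 32 of 44 loci above 0, with AOX1D and FMO GS-OX4 up and AT5G58390 down by 2-fold. Cell redox homeostasis had 9 of 11 above 0 and a median of 0.06. Its 11 loci include all 8 listed glutaredoxins of the next group, so the groups overlap. The plant-specific glutaredoxins of the CC type, of which 8 of 12 were listed, had 6 above 0 and a median of 0.05. AT3G62950 lay highest among them with a difference of 0.58, and AT4G15680, which had differed by 4.14 in the first hour, was next at 0.19. The cytosol term had 9 of 10 above 0 and a median of 0.12.

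**Figure D5:**
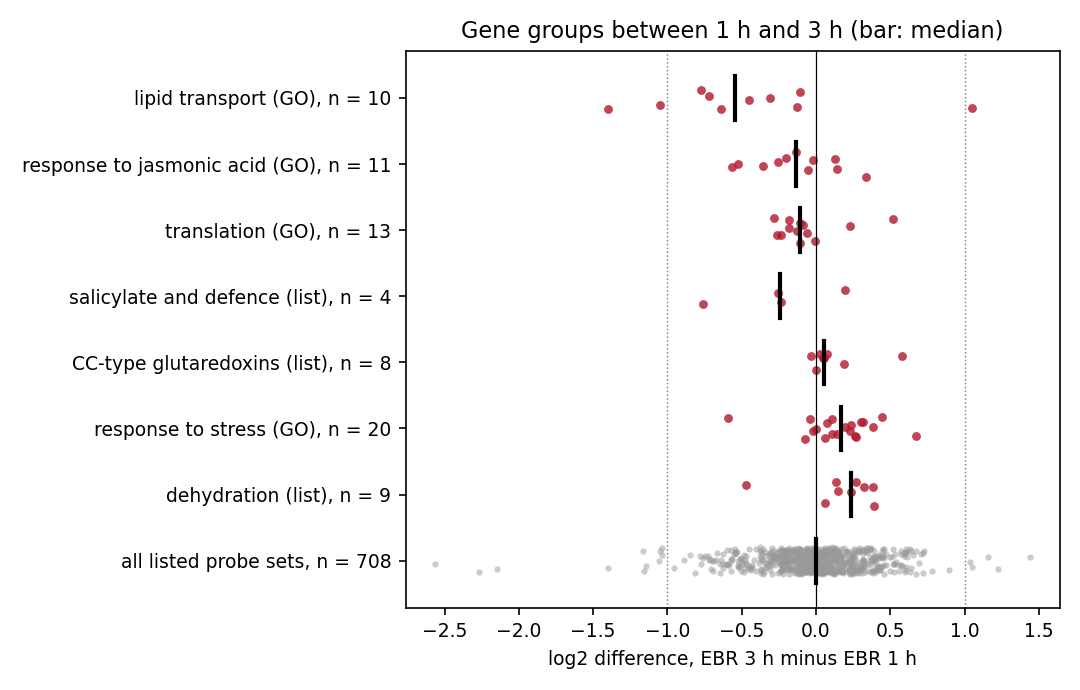
Differences between 3 h and 1 h in EBR seedlings for 4 Gene Ontology terms, 3 gene lists and all 708 listed probe sets, with a point per gene or probe set and a black bar at the median; dotted lines mark 2-fold. Lipid transport has its median at -0.55, while all probe sets centre on 0.

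Translation and receptor genes lay a little below 0. Of 13 translation loci 11 lay below 0, with a median of -0.11 in EBR seedlings and -0.14 in controls. The exceptions were RFC3 at 0.23 and RPS2 at 0.52, and RPS2 as named by its locus is a disease resistance gene and not a ribosomal protein gene. Receptor activity had 12 of 13 below 0 and a median of -0.12, with 0.07 in controls. The response to jasmonic acid had 8 of 11 below 0 and a median of -0.14, with -0.20 in controls. Its lowest loci were MYB47 at -0.57 and LOX2, a lipoxygenase of jasmonate synthesis, at -0.53. In controls LOX2 differed by -0.79. All 3 listed genes of the 22 on the jasmonate list, LOX2, JR1 and CORI3, lay below 0, at -0.53, -0.20 and -0.06. They are also among the 11 loci of that term, so they are not a separate group. Of 20 salicylate and defence genes 4 were listed on probe sets with 1 locus. They were LURP1 at -0.76, the transcription factor gene WRKY70 at -0.25 and the wall-associated kinase gene WAK1 at -0.23. The last was CBP60G, a regulator of salicylate synthesis, at 0.19. A further member lies on a probe set with several loci and was not counted. Among such probe sets, that shared by AT1G73800 and AT1G73805 went on rising at 1.5-fold.

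The remaining lists had few listed genes, none past 2-fold, which only 2.26% of all 708 probe sets passed. Of 17 brassinosteroid genes 3 were listed, and BAS1, whose enzyme inactivates brassinosteroids, differed by 0.44, the early response factor gene BEE2 by 0.01 and BRH1 by -0.35. BAS1 lay at 2.48, 0.07 and 0.51 in EBR seedlings and at 0.93, -0.19 and -0.16 in controls. Of 22 auxin and cell wall growth genes SAUR9 differed by 0.42, WES1 by 0.04, EXPA1 by -0.15 and EXPA11 by -0.37, the last against 0.42 in controls. Of 13 senescence genes APG8A differed by 0.60, SAG13 by -0.03 and SAG29 by -0.31. Of 16 antioxidant genes CAT3 differed by 0.13, MSRB6 by -0.02 and CSD2 by -0.59. A further antioxidant gene, on a probe set with several loci, was not counted. PAP1 and GSTF12 of the anthocyanin pathway differed by -0.14 and -0.18, the glucosinolate chain elongation gene IMS2 by 0.26. Hsp70-2 and the mitochondrial mtHsc70-1 differed by 0.11 and -0.04, and the heat shock factor gene HSF A4A by 0.08. The lists of small heat shock proteins, ethylene, photosynthesis and the clock, and those of root, guard cell and vascular markers, had no listed gene, so the later course of the small chaperones is not analysed here.

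The files give no error for these means, and an approximate one was inferred from the control columns of the value table. Those columns never exceed 1, which was read as a geometric over an arithmetic mean of 3 control arrays, and EBR arrays were assumed to vary like them. The median standard error so read was 0.131, and 192 of 708 probe sets (27.1%) lay past 3 standard errors, among them 14 of the 16 past 2-fold. This error is on the narrower scale of the value table while the differences are on that of the log2 columns, so these counts may be too high. With the error pooled over the stages and set on the wider scale of the log2 columns, a choice made after seeing the data, the median was 0.229. Then 62 probe sets (8.76%) and 11 of the 16 lay past 3 standard errors, and AT5G01870, the probe set shared by AT1G48750 and AT1G48760, HCHIB, FMO GS-OX4 and EARLI1 did not. The number of arrays limits the precision further. Mean signal intensity at both heat stages is deposited for 177 of the 708 probe sets, and for 7 of the 16 past 2-fold. It was 59.4 at 3 h and 154 at 1 h for NF-YA2, 15.1 and 34.0 for AT5G01870, 35.5 and 16.9 for AOX1D, and 342 and 160 for EARLI1, which all keep a difference of at least 2-fold. For AHP4 it was 34.0 at 3 h and 66.0 at 1 h, a difference of -0.96, so AHP4, NATA1 and FMO GS-OX4 did not pass 2-fold by signal.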

How the data were processed

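Total RNA from shoots was hybridised to Affymetrix ATH1 arrays, with MAS5 and GCRMA named in the submitters' processing notes without version or role. The authors' deposited tables hold normalized log2 values, mean signal intensity and linear fold values per condition, made by the authors as means over arrays. Per the file headers, a 2-way ANOVA selected probe sets whose corrected p for treatment was at most 0.05, with a change of at least 2-fold in at least 1 of 5 pairs against the unstressed control. The sources used here do not give the way arrays were averaged. The deposited value table holds a linear ratio per probe set and sample, read from its values as EBR over the same stage's control.

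From these, log2 columns were subtracted, steps classed at 2-fold, and groups described by counts and medians (Python 3.11.15, pandas 2.3.3, numpy 2.4.6, matplotlib 3.10.9). No test was possible with 1 mean per group. The listed folds and the log2 differences were checked to agree within 5.16e-07. The classing was run on simulated steps without noise, which checks the code and not the calls near the threshold. The members, the 23 gene lists, the alternatives and the naming rule were chosen with earlier results of these data known. The rule picked 92 genes, and not all of them are described above. It took the 12 highest and 12 lowest differences, 5 per class and 4 per list. It also took 6 each way for the difference of steps, 3 per term and the genes nearest the threshold. XBAT34, AT1G64360, BGLU45, DREB26, CWLP, AT3G18280, AT1G62790, DIR1, RFC3, ERD10, ERD14, AT5G13200, KCS3, SLAH3, NF-YA5, NF-YA6 and NF-YA8, and the probe sets with several loci or none, were named after their values were seen. All 671 probe sets with 1 locus matched the TAIR10.1 table used for symbols. No coordinates are printed, since no build is named in the files, and promoter motifs were not analysed here.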

Additional observations from a re-analysis of the deposited data

Results flagged for a closer look

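In 7 of the 92 genes named by rule the later heat step ran in opposite directions in EBR and control seedlings and was at least 2-fold apart, a difference that was not tested. All 7 had been named for the size of this very difference, so 7 of 92 is not a rate. Over all 708 listed probe sets, 13 (1.84%) had steps at least 2-fold apart, in opposite directions or not. The EBR step minus the control step was -1.64 for NF-YA2, with steps of -1.14 in EBR seedlings and 0.50 in controls. It was -1.23 for AHP4, with -1.06 and 0.17, and -1.06 for HCHIB, with -1.03 and 0.03. It was 1.47 for AT2G38600, with 1.44 in EBR seedlings and -0.03 in controls, 1.30 for AT5G53680, with 1.22 and -0.08, and 1.22 for AOX1D, with 1.16 and -0.06. For NAC069 it was 1.18, with 0.35 in EBR seedlings and -0.83 in controls. In all but NF-YA2 and NAC069, the control step lay between -0.08 and 0.17, so the opposite sign there rests on small values. Outside the rule the steps were also opposite and at least 2-fold apart for DREB26, with 0.37 in EBR seedlings and -0.73 in controls, and for the probe set shared by AT1G57980 and AT1G57990, with 0.06 and -1.57. Outside the 708 listed probe sets, 41 of 22038 on the value table had an EBR to control ratio at least 2-fold higher at 3 h than at 1 h, and 7 had one at least 2-fold lower. These probe sets are not in the deposited heat table, have no gene name here and their own change with heat is not known.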

How the results depend on the processing

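The counts of the later EBR step depend on the fold threshold. At 1.5-fold, 29 probe sets were higher and 38 lower, 29 went on in the direction of the first hour, 10 turned back, 28 moved only after 1 h, 378 only in the first hour and 263 in neither step. At 3-fold these counts were 0 higher, 3 lower, 0 that went on, 0 that turned back, 3 only after 1 h and 117 only in the first hour. Of the 5 higher, 3 also lay past 3 approximate standard errors, and 3 with the pooled error added after seeing the data. Signals are deposited for part of the list only. With low signals left out, 2 were lower, of 4 on the same probe sets, 1 went on, of 2, and 2 moved only after 1 h, of 4; from mean signal intensity, 1 moved only after 1 h, of 4. The EBR and control steps were at least 1.5-fold apart in 49 probe sets upward and 33 downward, and by the value table at least 2-fold apart in 3 and 2. The difference between arms for PCC1 was -0.014 in the value table, against 1.12 in the log2 columns, and the cause was not tested. AT3G02480 differed by 0.32 in the log2 columns and by -0.26 in mean signal intensity. Centring each condition on its median left all 92 named genes within the approximate error. The other 11 named differences between arms shrank but kept their sign in the value table. No paired analysis was possible because the deposited columns are condition means and carry no replicate, and for the same reason no replicate could be left out.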
